A study of Mus musculus with 9 samples.

Results

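The matrix metalloproteinases (MMPs), the ADAMTS proteases and the tissue inhibitors of metalloproteinases (TIMPs) were examined in cultured adipose-derived stem cells (ASCs) from 3 fat depots of C57BL/6 mice. They were taken as every protein-coding gene of the count table whose symbol was Mmp, Adamts or Timp with its number, which gave 45 of 54532 genes: 22 Mmp, 19 Adamts and 4 Timp genes. Mmp1a was listed as a polymorphic pseudogene and did not meet the rule. Bulk mRNA was sequenced from subcutaneous ASCs (Sub-ASCs), abdominal ASCs (Ab-ASCs) and perivascular ASCs (PVASCs), with 3 libraries per group and 9 in all. All groups were primary cultures of adherent cells from enzyme-digested fat, expanded over several passages in the same medium with serum, leukemia inhibitory factor and FGF, with no genetic change or treatment in the labels. The age, sex and number of mice are not given in the sources used here. Nothing said that the libraries of a group came from separate mice or cultures, so the p-values measure only the spread between these libraries, which may be technical.

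MMPs are zinc-dependent endopeptidases that cleave collagens, elastin, basement membrane and other matrix proteins, and are secreted or membrane-bound as inactive proenzymes. ADAMTS proteases are secreted relatives with thrombospondin repeats, and their members trim procollagen, cleave proteoglycans such as versican and aggrecan, or act on fibrillin fibres. TIMPs bind the active sites of these enzymes. In adipose tissue the balance of proteases and inhibitors is known for its part in remodelling of the matrix when fat expands, and in the vessel wall for its part in the migration of smooth muscle cells.

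Levels are given as CPM, reads per library of a common size after TMM (trimmed mean of M values) normalization, and levels of different genes were compared only as FPKM, which is this CPM per kilobase of listed gene length. The libraries held 20524173 to 29881036 reads, at which 3 reads, taken as the floor, were worth 0.0917 to 0.161 CPM. Ab-ASC replicate 1 stood apart, with 12.2% of 16526 tested genes over 0.5 on the log2 scale from the mean of the other two libraries of its group, against 1.65% to 5.78% in the other 8 libraries. Of 35 members with enough reads, 5 were past that distance in Ab-ASC replicate 1 (Adamts15 above, and Adamts6, Mmp12, Mmp13 and Mmp1b below). The stromal label was checked with 10 markers, all detected in every group, whose summed level was 7121 to 7155 CPM in Sub-ASCs, 3708 to 3832 CPM in Ab-ASCs and 4367 to 4517 CPM in PVASCs. Of the 10, 4 were higher and 6 lower in PVASCs than in Sub-ASCs, and 3 were higher and 7 lower in Ab-ASCs than in Sub-ASCs. Ly6a (Sca1) had a mean of 2049 CPM in Sub-ASCs, 21.8 CPM in Ab-ASCs and 111 CPM in PVASCs, Thy1 332, 231 and 883 CPM, and Eng (CD105) 108, 145 and 328 CPM. Other markers also moved with the groups: summed levels were 93.0 to 98.2, 4653 to 5745 and 2816 to 2961 CPM for 8 smooth muscle genes, 193 to 210, 70.5 to 73.9 and 796 to 800 CPM for 9 endothelial genes, and 57.5 to 64.2, 631 to 720 and 649 to 663 CPM for 8 proliferation genes in Sub-ASCs, Ab-ASCs and PVASCs. Of the 9 endothelial genes, 7 were higher and 2 (Tek and Cldn5) lower in PVASCs than in Sub-ASCs. All 7 tested smooth muscle genes were higher in PVASCs and in Ab-ASCs than in Sub-ASCs. Acta2 alone had a mean of 52.7 CPM in Sub-ASCs, 4436 CPM in Ab-ASCs and 2505 CPM in PVASCs. For 11 mesothelial genes the sums were 3.17 to 3.26, 127 to 136 and 51.8 to 53.5 CPM, with Upk1b, Lrrn4 and Muc16 at 0 in Sub-ASCs. Their part in the results was not tested. In bulk samples, fewer cells of a type and less RNA per cell cannot be told apart.

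The comparison of PVASCs with Sub-ASCs asked how stem cells of the vessel's own fat differ from those of the skin depot. Most of the proteases and Timp2 and Timp4 were lower in PVASCs, while Timp1, Timp3, several membrane-type MMPs, Mmp10 and Adamts6 were higher. Of 35 members tested, 33 passed (edgeR quasi-likelihood test, Benjamini-Hochberg adjusted p under 0.05 over all tested genes), with 10 higher and 23 lower. That is 94.3%, where 70.4% of all 16526 tested genes passed (34.7% higher and 35.7% lower). The median log2 fold change was -0.99 for the members and -0.01 for all tested genes, and the median absolute log2 fold change was 2.05 for the members and 0.59 for all. Changes of at least 1 on the log2 scale were found for 27 members, or 77.1%, against 32.2% of all tested genes. The 3 PVASC and 3 Sub-ASC libraries did not overlap for 34 members, or 97.1%, against 77.3% of all tested genes, the exception being Adamts10.

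Ab-ASCs differed from Sub-ASCs by as much. Again 33 of 35 members passed, 13 higher and 20 lower in Ab-ASCs, or 94.3% against 75.3% of all tested genes (37% higher and 38.3% lower). The median log2 fold change was -0.88 for the members and -0.03 for all genes, and the median absolute values were 2.10 and 0.75. The libraries of these groups did not overlap for 32 members, or 91.4%, against 76.5% of all tested genes, the exceptions being Mmp1b, Adamts10 and Adamts12. This comparison and the previous one share the Sub-ASC libraries.

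PVASCs and Ab-ASCs were closer. Of the 35 members 25 passed, 8 higher and 17 lower in PVASCs, or 71.4% against 56.9% of all tested genes (24.7% higher and 32.1% lower). The median absolute log2 fold change was 0.77 for the members and 0.38 for all genes, and 13 members changed by at least 1, or 37.1%, against 15.4% of all genes. The libraries of these groups did not overlap for 25 members, or 71.4%, against 63.9% of all tested genes. They overlapped for 10 members (Mmp1b, Mmp12, Mmp17, Mmp19, Mmp23, Adamts6, Adamts10, Adamts12, Adamts19 and Timp4).

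Ordered by group, 19 members were higher in Sub-ASCs than in both other groups, or 54.3% against 28.7% of all tested genes. They included Mmp2, Mmp3, Mmp11, Mmp14 and 8 Adamts genes. In Ab-ASCs 7 members were highest, or 20% against 20.9% of all genes: Mmp8, Mmp9, Mmp10, Mmp13, Adamts8, Adamts9 and Timp1. In PVASCs 4 members were highest, or 11.4% against 10.2% of all genes: Mmp15, Mmp16, Adamts14 and Timp3. The shares for Ab-ASCs and PVASCs were thus near those of all genes. PVASCs were lowest for 14 members, or 40%, where 12% of all tested genes were lowest in PVASCs. Among the 14 was Mmp12, whose difference from Ab-ASCs was lost under the alternatives given with the gene. A test for any difference among the 3 groups was passed by 33 members, where 84.6% of all tested genes passed.

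**Figure D1:**
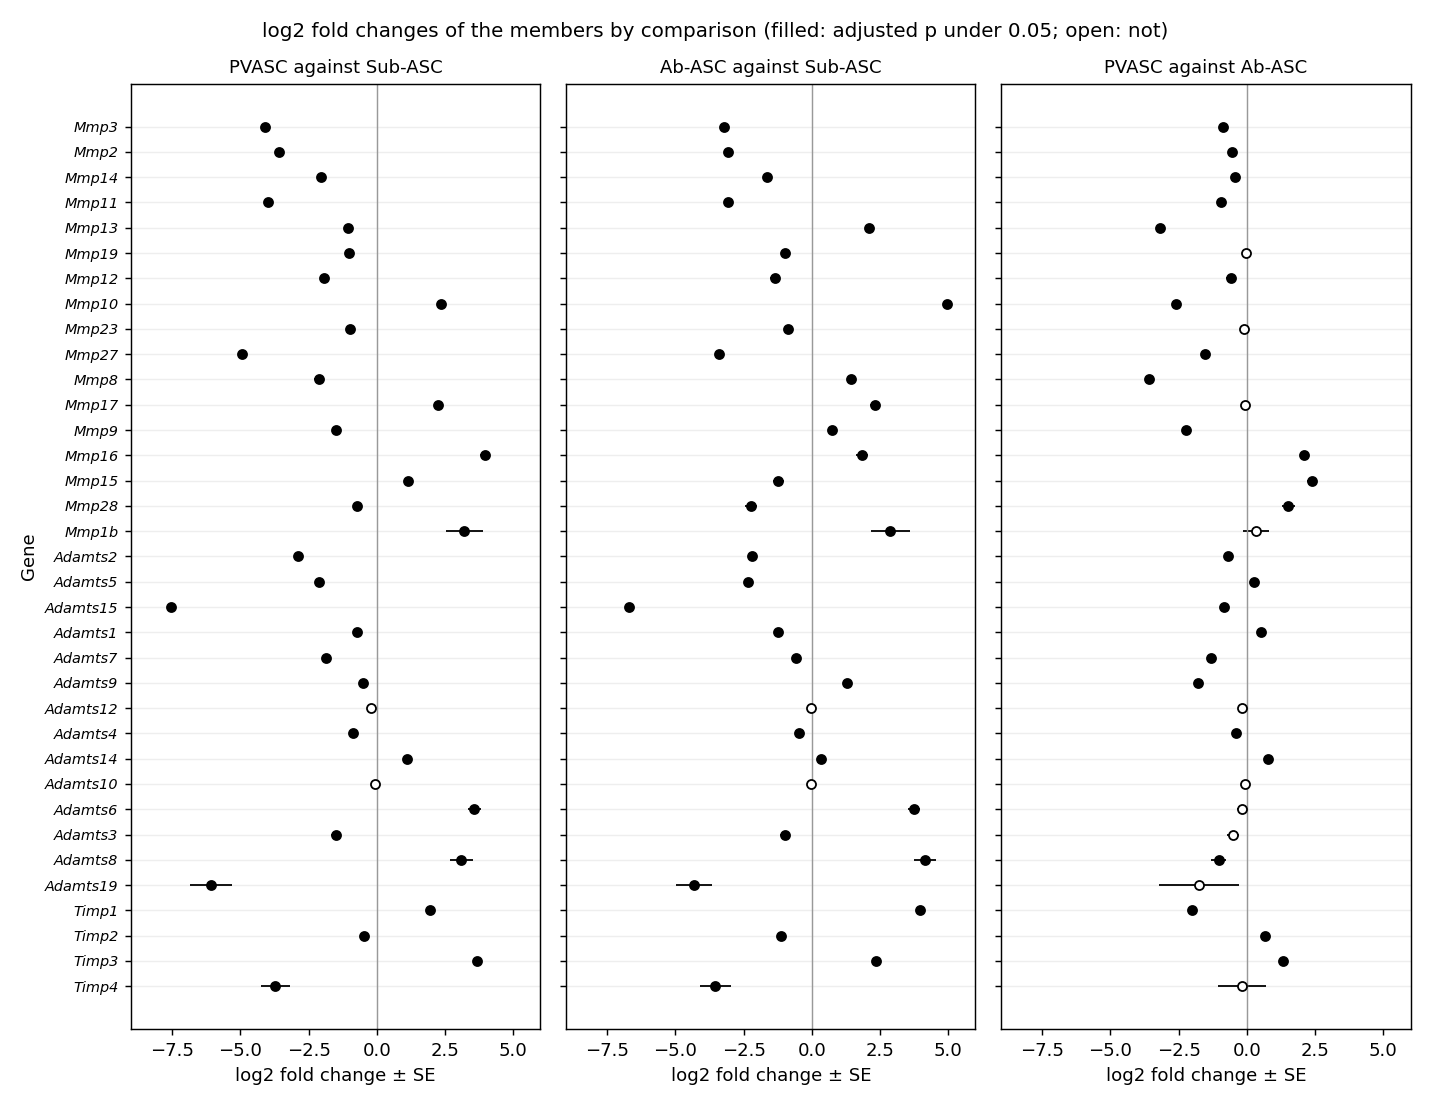
Each point is the log2 fold change of 1 member with its standard error (horizontal bar), for PVASCs against Sub-ASCs, Ab-ASCs against Sub-ASCs and PVASCs against Ab-ASCs, with filled points for adjusted p under 0.05 and open points otherwise. In the first panel 23 filled points lie left of 0 and 10 right of it, and the third panel holds 10 open points against 2 in each of the others.

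The shares of MMPs and TIMPs among the transcripts of the members differed between the depots. Summed over the members, FPKM was 5823 ± 71.1 (SD, n = 3) in Sub-ASCs, 8181 ± 1182 in Ab-ASCs and 2679 ± 46.5 in PVASCs. MMPs made up 77.2% ± 0.371 of the sum in Sub-ASCs, 9.64% ± 1.17 in Ab-ASCs and 15.9% ± 0.391 in PVASCs. TIMPs made up 16.3% ± 0.298, 88.8% ± 1.39 and 80.1% ± 0.498, and ADAMTS proteases 6.58%, 1.55% and 3.95%. So a summed MMP level that was 4.75 ± 0.111 times the summed TIMP level in Sub-ASCs was 0.109 ± 0.0147 times that level in Ab-ASCs and 0.199 ± 0.00609 times in PVASCs.

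Single genes carried these sums. Mmp3 held 48.3% of the members' FPKM in Sub-ASCs, followed by Mmp2 (16.1%), Timp2 (8.47%), Timp1 (7.72%) and Mmp14 (7.12%). Timp1 held 85.8% in Ab-ASCs, where Mmp3 was next at 3.73%. In PVASCs Timp1 held 65.2%, followed by Timp2 (13.2%), Mmp3 (6.10%) and Mmp14 (3.73%). With Mmp3 and Timp1 left out of the sums, which was chosen after seeing the data, the ratio of MMPs to TIMPs was 3.38 ± 0.12 in Sub-ASCs, 1.98 ± 0.12 in Ab-ASCs and 0.659 ± 0.00916 in PVASCs. The order of Ab-ASCs and PVASCs was then the opposite of that with all members. With 3 libraries against 3, an exact permutation test cannot go below p = 0.10, so these sums are given without a test.

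**Figure D2:**
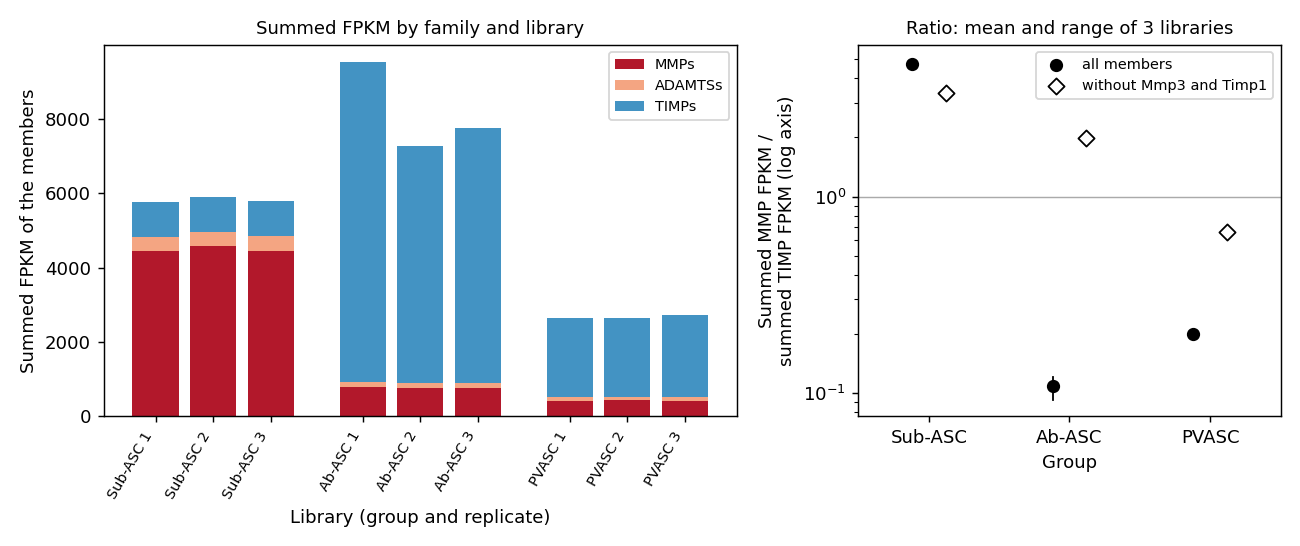
The left panel stacks the summed FPKM of MMPs, ADAMTS proteases and TIMPs in each of the 9 libraries, and the right panel gives the ratio of summed MMP to summed TIMP FPKM on a log axis, as the mean (symbol) and range (line) of 3 libraries, with all members and without Mmp3 and Timp1. MMPs fill most of the Sub-ASC bars and TIMPs most of the others, and with all members the ratio lies above 1 in Sub-ASCs and below 1 in Ab-ASCs and PVASCs.

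The 4 TIMPs took different orders across the depots. Timp1, a secreted inhibitor of most soluble MMPs (chrX:20870166-20874735, plus strand), had 408, 376 and 412 CPM in Sub-ASCs, 7411, 5462 and 5867 CPM in Ab-ASCs and 1516, 1529 and 1607 CPM in PVASCs. Every PVASC library lay above the Sub-ASC libraries and below the Ab-ASC libraries. Timp1 in PVASCs was 3.89-fold above Sub-ASCs (log2 fold change 1.96 ± 0.095 (SE), adjusted p = 1.39e-09), 15.7-fold higher in Ab-ASCs than in Sub-ASCs (3.97 ± 0.10 (SE), adjusted p = 3.69e-12) and 4.03-fold lower in PVASCs than in Ab-ASCs (-2.01 ± 0.094 (SE), adjusted p = 5.2e-09). The gene lies inside Syn1 on the opposite strand with no shared exon bases, and Syn1 had 53 to 214 reads per library.

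Timp2, which with MMP14 forms the complex that activates pro-MMP2, had 1897, 1996 and 1876 CPM in Sub-ASCs, 925, 823 and 868 CPM in Ab-ASCs and 1405, 1374 and 1365 CPM in PVASCs. Its order was Sub-ASCs, PVASCs, Ab-ASCs with no overlap, and the differences were small beside those of Timp1, at a log2 fold change of -0.48 ± 0.051 (SE), adjusted p = 2.94e-06 in PVASCs against Sub-ASCs and 0.66 ± 0.051 (SE), adjusted p = 4.37e-07 against Ab-ASCs. Timp3, which is held in the matrix and also inhibits ADAMTS aggrecanases (chr10:86300372-86349506, plus strand), had 28.7, 29.2 and 28 CPM in Sub-ASCs, 145, 149 and 142 CPM in Ab-ASCs and 361, 375 and 363 CPM in PVASCs. It was highest in PVASCs, 12.8-fold above Sub-ASCs (3.68 ± 0.053 (SE), adjusted p = 3.85e-14) and 2.52-fold above Ab-ASCs (1.33 ± 0.047 (SE), adjusted p = 4.76e-10). Timp3 lies inside Syn3 on the opposite strand and shares 1733 exon bases with it, and Syn3 had 0 to 15 reads per library. The strand of the libraries was not stated, so reads from bases that genes share on opposite strands cannot be told apart. Timp4 was at or near the floor outside Sub-ASCs, with 1.72, 0.865 and 1.41 CPM in Sub-ASCs, 0.0537, 0.133 and 0.134 CPM in Ab-ASCs and 0.0306, 0.237 and 0.0318 CPM in PVASCs. Its log2 fold change against Sub-ASCs was -3.72 in PVASCs and -3.54 in Ab-ASCs (adjusted p = 4.88e-05 and 0.000125). PVASCs and Ab-ASCs did not differ beyond their spread for Timp4 (-0.18, adjusted p = 0.879, and 0.25 or 0.23 without PVASC replicate 1 or 3).

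**Figure D3:**
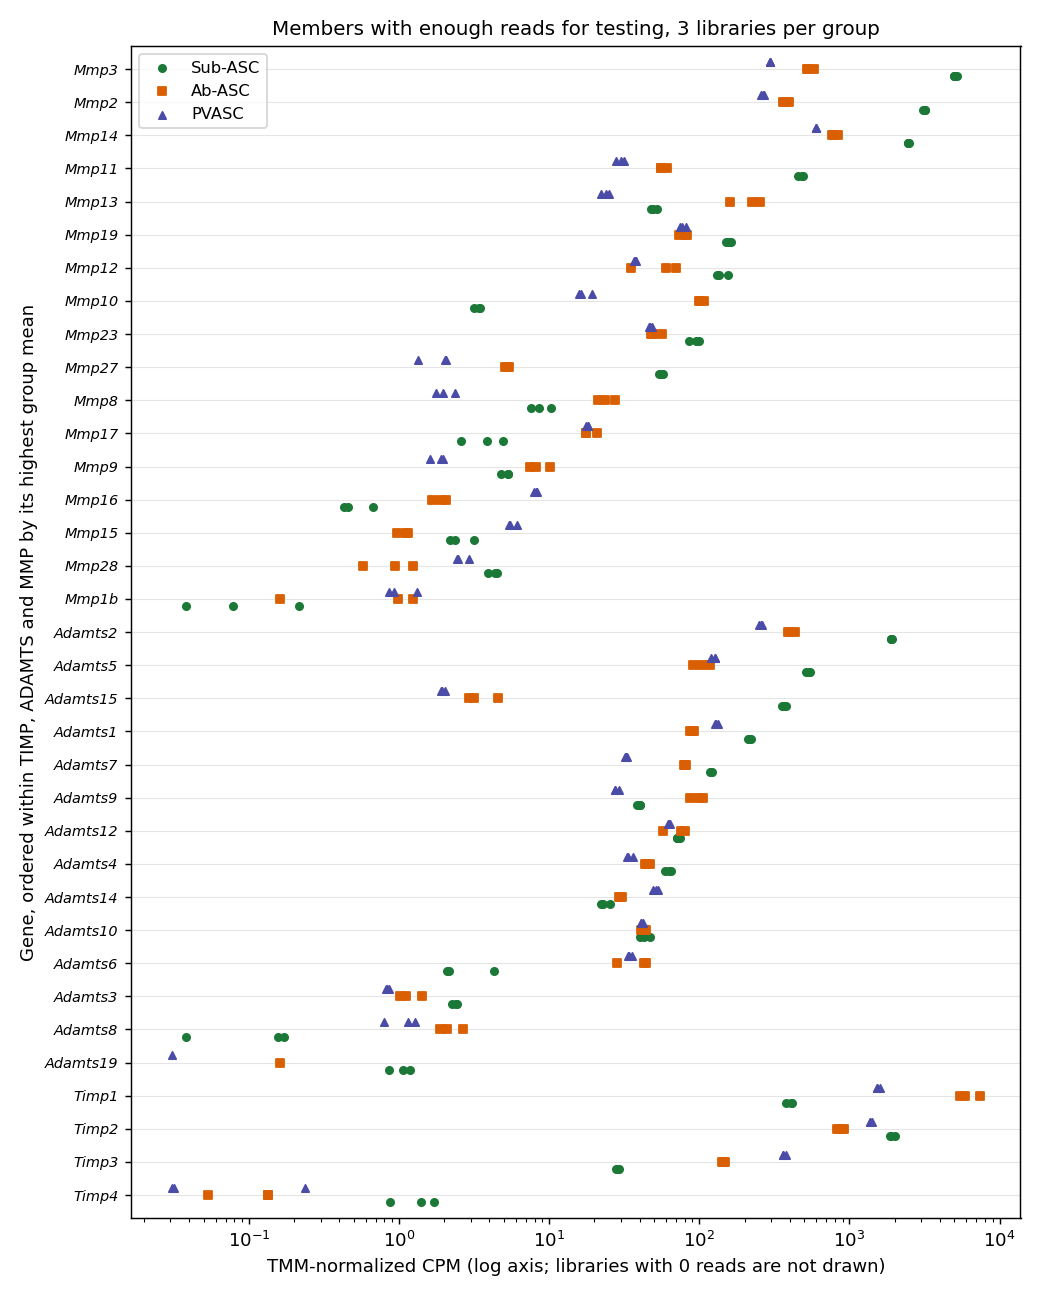
Each symbol is the TMM-normalized CPM of 1 library on a log axis for the 35 members with enough reads, in Sub-ASCs (circles), Ab-ASCs (squares) and PVASCs (triangles), and libraries with 0 reads are not drawn. Replicates lie close together for abundant genes, the Sub-ASC libraries of Mmp3, Mmp2 and Adamts15 lie far right of the others, and those of Timp1 and Timp3 lie left.

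Of the 22 MMPs, 9 lie side by side in a stretch of 427072 bases at chr9:7272514-7699585 (GRCm38), in the order Mmp13, Mmp12, Mmp1b, Mmp3, Mmp10, Mmp8, Mmp27, Mmp20 and Mmp7, with no other protein-coding gene in between. The promoters of these collagenases, stromelysins and relatives are known for a binding site of AP-1, the dimer of Fos and Jun proteins, close to the start. RefSeq promoters (GRCm38.p6) were given for 31 of the 45 members, at 34 starts, and the 250 bases before each start were searched on both strands for TGAGTCA, the AP-1 site, whose reverse complement is TGACTCA. These letters stood before 6 of 11 starts in the cluster (54.5%), in Mmp3, Mmp10, Mmp13, Mmp12, Mmp1b and Mmp7. They stood before none of 23 starts of the other members, and before 1466 of 32851 starts of all genes (4.46%). For Mmp12 the letters stood only before a start inside the gene, and not before its other start at chr9:7344397. Mmp7 also had a second start without them. TATAAA, read on the gene's strand, was found before 6 of these 11 cluster starts (7.59% of all starts), and AGGAAGT, the PEA3 site, on either strand before 4 (7.69% of all starts). The match is a description of the letters and not of binding. The last 120 bases before the start are printed for 4 cluster genes that hold the AP-1 letters, each 5′ to 3′ on the plus strand, with the AP-1 letters in capitals. Mmp8 and Mmp27 are shown as neighbours without these letters, and Mmp12 at the RefSeq start inside its gene. Mmp1b, whose window holds 21 bases of an annotated exon, and Mmp7, which had almost no reads, are not printed.
Mmp13, chr9:7272394-7272513: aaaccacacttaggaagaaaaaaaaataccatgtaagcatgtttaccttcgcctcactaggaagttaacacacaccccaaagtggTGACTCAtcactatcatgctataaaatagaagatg
Mmp12, chr9:7347254-7347373: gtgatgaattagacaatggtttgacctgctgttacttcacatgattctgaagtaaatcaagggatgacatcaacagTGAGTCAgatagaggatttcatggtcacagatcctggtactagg
Mmp3, chr9:7445702-7445821: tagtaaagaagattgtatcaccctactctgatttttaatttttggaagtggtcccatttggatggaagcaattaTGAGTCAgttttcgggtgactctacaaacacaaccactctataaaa
Mmp10, chr9:7502222-7502341: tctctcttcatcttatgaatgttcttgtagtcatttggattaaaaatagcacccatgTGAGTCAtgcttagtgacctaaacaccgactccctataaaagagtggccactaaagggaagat
Mmp8, chr9:7558309-7558428: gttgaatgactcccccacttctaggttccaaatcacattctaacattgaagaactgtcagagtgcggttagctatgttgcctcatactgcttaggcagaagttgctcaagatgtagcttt
Mmp27, chr9:7571276-7571395: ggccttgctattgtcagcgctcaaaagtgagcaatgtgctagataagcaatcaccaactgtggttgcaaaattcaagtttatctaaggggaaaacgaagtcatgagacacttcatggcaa
The AP-1 letters began 35 bases before the start of Mmp13, 44 before the start inside Mmp12, 46 before that of Mmp3 and 63 before that of Mmp10.

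Neighbours in the cluster had unlike orders across the depots. Mmp3, Mmp12 and Mmp27 were highest in Sub-ASCs, whereas Mmp13, Mmp10 and Mmp8 were highest in Ab-ASCs. Among them Mmp13, Mmp3, Mmp8 and Mmp27 were lowest in PVASCs, and Mmp10 in Sub-ASCs, while for Mmp12 the PVASC and Ab-ASC libraries overlapped. So genes with the AP-1 letters and genes without them were found in both orders.

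The stromelysins have broad substrates, and MMP3 also activates other pro-MMPs. Mmp3 (chr9:7445822-7455975, plus strand) was the most abundant member in Sub-ASCs by FPKM, with 4985, 5229 and 4986 CPM in Sub-ASCs, 579, 525 and 529 CPM in Ab-ASCs and 295, 294 and 295 CPM in PVASCs. It was 17.2-fold lower in PVASCs (-4.11 ± 0.054 (SE), adjusted p = 2.12e-14) and 9.31-fold lower in Ab-ASCs (-3.22 ± 0.052 (SE), adjusted p = 7.62e-14) than in Sub-ASCs, and 1.85-fold lower in PVASCs than in Ab-ASCs (-0.89 ± 0.048 (SE), adjusted p = 1.92e-08). Its closest relative Mmp10 (chr9:7502352-7510240, plus strand) had the opposite extreme, with 3.43, 3.14 and 3.47 CPM in Sub-ASCs, 108, 99.4 and 101 CPM in Ab-ASCs and 16.3, 19.4 and 15.8 CPM in PVASCs. No libraries overlapped, and Mmp10 was 30.7-fold higher in Ab-ASCs (4.94 ± 0.10 (SE), adjusted p = 4.04e-13) and 5.12-fold higher in PVASCs (2.36 ± 0.10 (SE), adjusted p = 5.21e-10) than in Sub-ASCs. The same fit put PVASCs 5.99-fold below Ab-ASCs (-2.58 ± 0.081 (SE), adjusted p = 1.74e-10). Mmp11 (stromelysin 3, on chromosome 10 and not in the cluster), which is activated by furin inside the cell, followed Mmp3 with 486, 455 and 488 CPM in Sub-ASCs, 60.7, 55.8 and 56 CPM in Ab-ASCs and 30.02, 27.7 and 31.5 CPM in PVASCs. It was 16-fold lower in PVASCs (-4.002 ± 0.068 (SE), adjusted p = 1.1e-13) and 8.3-fold lower in Ab-ASCs than in Sub-ASCs. Mmp11 shares 155 exon bases with Chchd10 on the opposite strand (28 to 200 reads per library).

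The collagenases cleave fibrillar collagen. Mmp13 (collagenase 3, chr9:7272514-7283331, plus strand) had 48, 52.4 and 48.8 CPM in Sub-ASCs, 159.6, 255 and 226 CPM in Ab-ASCs and 25.1, 22.2 and 23.8 CPM in PVASCs. Every Ab-ASC library lay above the others, with Ab-ASC replicate 1 the lowest of the 3, and every PVASC library lay below those of Sub-ASCs. Its log2 fold change was 2.10 ± 0.14 (SE), adjusted p = 2.4e-08 in Ab-ASCs against Sub-ASCs, -1.07 ± 0.14 (SE), adjusted p = 1.97e-05 in PVASCs against Sub-ASCs and -3.17 ± 0.14 (SE), adjusted p = 3.74e-09 in PVASCs against Ab-ASCs. Mmp8, known as the neutrophil collagenase, took the same order at a lower level, with 8.59, 10.3 and 7.59 CPM in Sub-ASCs, 21.2, 23.5 and 27.4 CPM in Ab-ASCs and 1.96, 2.37 and 1.75 CPM in PVASCs. It was 11.9-fold lower in PVASCs than in Ab-ASCs (-3.57 ± 0.16 (SE), adjusted p = 2.87e-09) and 4.36-fold lower than in Sub-ASCs (-2.13 ± 0.17 (SE), adjusted p = 1.56e-07). Mmp1b was barely expressed, with 0.215, 0.0786 and 0.0381 CPM in Sub-ASCs, 0.161, 1.24 and 0.981 CPM in Ab-ASCs and 0.856, 1.32 and 0.922 CPM in PVASCs. Sub-ASC values were at or near the floor, and Ab-ASC replicate 1 was at the floor while the other two Ab-ASC libraries were not. Its log2 fold change against Sub-ASCs was 3.21 ± 0.67 (SE), adjusted p = 0.000967 in PVASCs and 2.88 ± 0.72 (SE), adjusted p = 0.00304 in Ab-ASCs, and 0.33 between PVASCs and Ab-ASCs (adjusted p = 0.581, or -0.11 without Ab-ASC replicate 1). Mmp1b and Mmp12 share 157 exon bases on opposite strands, and Mmp12 had 650 to 3949 reads per library where Mmp1b had 1 to 39.

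Mmp12, the macrophage elastase (chr9:7344381-7369499, plus strand), had 135, 155 and 132 CPM in Sub-ASCs, 34.9, 69.8 and 60.2 CPM in Ab-ASCs and 36.9, 37.8 and 37.2 CPM in PVASCs. Sub-ASCs were highest, and Ab-ASC replicate 1 lay below every PVASC library while the other two lay above. Mmp12 was 3.77-fold lower in PVASCs (-1.91 ± 0.18 (SE), adjusted p = 1.06e-06) and 2.55-fold lower in Ab-ASCs (-1.35 ± 0.18 (SE), adjusted p = 2.17e-05) than in Sub-ASCs. PVASCs against Ab-ASCs gave -0.56 ± 0.18 (SE), adjusted p = 0.0193, and this call was lost in a fit of these 2 groups alone (-0.49, adjusted p = 0.0941) and without Ab-ASC replicate 2 or 3 or PVASC replicate 1 or 3 (adjusted p = 0.0522 to 0.0761). The log2 fold change was -0.36 without Ab-ASC replicate 2, -0.50 without Ab-ASC replicate 3 and -0.56 without PVASC replicate 1 or 3, and it was -0.80, with the call kept, without Ab-ASC replicate 1. Macrophage markers were all detected, 10 of 10, with a summed level of 331 to 334 CPM in Sub-ASCs, 340.1 to 438 CPM in Ab-ASCs and 330.4 to 340.3 CPM in PVASCs. Lyz2 alone had a mean of 163, 271 and 249 CPM in Sub-ASCs, Ab-ASCs and PVASCs. Of the 10 markers, 8 were lower and 2 higher (Lyz2 and Csf1r) in PVASCs than in Sub-ASCs, and likewise in Ab-ASCs, with median log2 fold changes of -1.09 and -0.87, so most of them moved in the direction of Mmp12. Among them Ptprc (CD45), which is not particular to macrophages, had a mean of 8.94, 1.41 and 2.81 CPM. The part of macrophages in the level of Mmp12 was not tested. Mmp27, the neighbour of Mmp8, had 56.3, 57.7 and 54.2 CPM in Sub-ASCs, 5.1, 5.42 and 5.26 CPM in Ab-ASCs and 1.34, 2.07 and 2.04 CPM in PVASCs. It was 30.9-fold lower in PVASCs (-4.95 ± 0.12 (SE), adjusted p = 1.61e-12) and 10.6-fold lower in Ab-ASCs than in Sub-ASCs (-3.41 ± 0.11 (SE), adjusted p = 1.88e-11). Of the remaining cluster genes, Mmp7 (matrilysin) had 0 to 6 reads and Mmp20 (enamelysin, an enzyme of tooth enamel) none in any library.

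**Figure D4:**
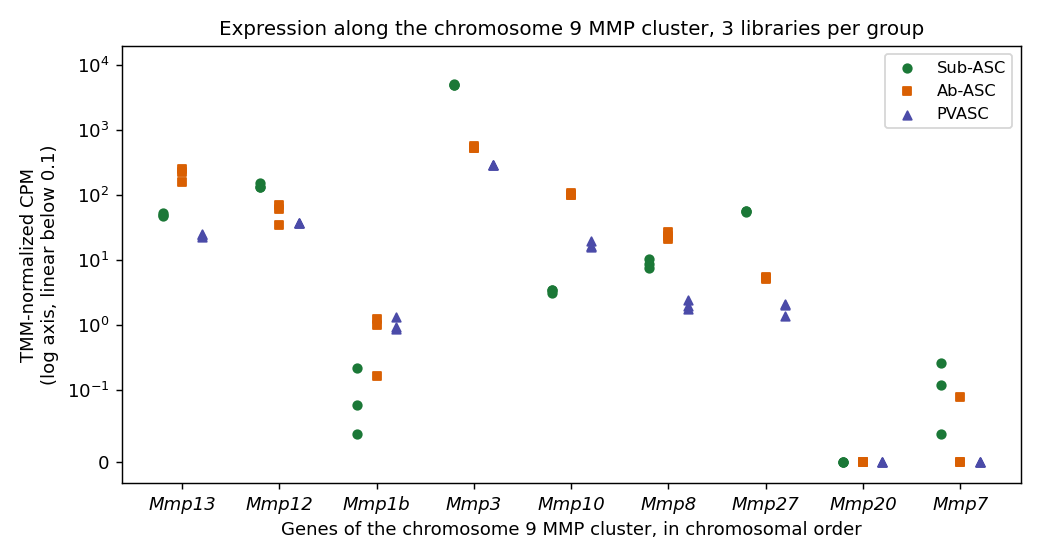
TMM-normalized CPM of the 9 MMP genes of the chromosome 9 cluster in chromosomal order, with 1 symbol per library for Sub-ASCs (circles), Ab-ASCs (squares) and PVASCs (triangles), on an axis that is logarithmic above 0.1 and linear below. Mmp3 and Mmp27 peak in Sub-ASCs while Mmp13, Mmp10 and Mmp8 between and beside them peak in Ab-ASCs, and Mmp20 is at 0.

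The gelatinases digest denatured collagen and basement membrane collagen. Mmp2 (chr8:92827291-92853420, plus strand) was abundant, with 3110.1, 3175 and 3188 CPM in Sub-ASCs, 397, 361 and 379 CPM in Ab-ASCs and 265, 269 and 256 CPM in PVASCs. The 3 groups did not overlap, and Mmp2 was 12-fold lower in PVASCs (-3.58 ± 0.051 (SE), adjusted p = 3.83e-14) and 8.33-fold lower in Ab-ASCs (-3.06 ± 0.05 (SE), adjusted p = 8.93e-14) than in Sub-ASCs. Between PVASCs and Ab-ASCs the log2 fold change was -0.52 (adjusted p = 1.78e-06). Mmp9 stayed under 10 CPM in group mean and took the order of Mmp8, with its highest level in Ab-ASCs and its lowest in PVASCs (log2 fold change -2.22 in PVASCs against Ab-ASCs, adjusted p = 1.17e-07).

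Of the 6 membrane-type MMPs, 4 had enough reads, and 3 of these were higher and 1 lower in PVASCs than in Sub-ASCs. The lower one was by far the most abundant: Mmp14 (MT1-MMP), the activator of pro-MMP2 at the cell surface (chr14:54431612-54445364, plus strand), had 2463, 2477 and 2472 CPM in Sub-ASCs, 836, 771 and 787 CPM in Ab-ASCs and 596, 596 and 595 CPM in PVASCs. Replicates were tight, and Mmp14 was 4.15-fold lower in PVASCs (-2.05 ± 0.045 (SE), adjusted p = 8.3e-13) and 3.1-fold lower in Ab-ASCs (-1.63 ± 0.044 (SE), adjusted p = 5.58e-12) than in Sub-ASCs. Thus Mmp2, Mmp14 and Timp2, which act in the same activation complex, were each lower in PVASCs than in Sub-ASCs, by log2 fold changes of -3.58, -2.05 and -0.48. Mmp16 (MT3-MMP) was low but in steps without overlap, with 0.429, 0.668 and 0.458 CPM in Sub-ASCs, 1.66, 1.91 and 2.05 CPM in Ab-ASCs and 7.95, 8.13 and 8.3 CPM in PVASCs. PVASCs were 15.5-fold above Sub-ASCs (3.95 ± 0.17 (SE), adjusted p = 3.85e-10) and 4.3-fold above Ab-ASCs (2.11 ± 0.14 (SE), adjusted p = 1.03e-07). Mmp15 (MT2-MMP) was also highest in PVASCs, at log2 fold changes of 1.15 and 2.38 against Sub-ASCs and Ab-ASCs (adjusted p = 1.82e-05 and 3.61e-07). Mmp17 (MT4-MMP), which is held by a lipid anchor, had 4.89, 3.85 and 2.59 CPM in Sub-ASCs, 20.7, 17.6 and 17.5 CPM in Ab-ASCs and 18.2, 18.1 and 17.5 CPM in PVASCs. It was 4.77-fold higher in PVASCs and 4.95-fold higher in Ab-ASCs than in Sub-ASCs (adjusted p = 6.03e-08 and 5.4e-08). PVASCs and Ab-ASCs overlapped for Mmp17 (-0.052, adjusted p = 0.768), and the sign turned in a fit of these groups alone and without Ab-ASC replicate 1 (0.026 and 0.028).

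Among the other MMPs, all 4 with enough reads were lower in PVASCs and in Ab-ASCs than in Sub-ASCs. Mmp19 had 159, 150.3 and 163 CPM in Sub-ASCs, 82.2, 73.7 and 81.3 CPM in Ab-ASCs and 77.1, 81.9 and 74.2 CPM in PVASCs. Mmp23, a membrane-anchored MMP with a short ectodomain, had 99.2, 85.5 and 95.6 CPM in Sub-ASCs, 56.1, 48.8 and 47.8 CPM in Ab-ASCs and 48.1, 47.1 and 46.1 CPM in PVASCs. Both were about equal in PVASCs and Ab-ASCs and higher in Sub-ASCs, with log2 fold changes of -1.02 and -0.99 in PVASCs against Sub-ASCs (adjusted p = 1.49e-08 and 1.2e-07). Between PVASCs and Ab-ASCs, Mmp23 differed by -0.11 (adjusted p = 0.232) and Mmp19 by -0.025 (adjusted p = 0.762). The sign of this last value was positive with at least 10 reads in every library (0.018), in a fit of the 2 groups alone (0.053) and without Ab-ASC replicate 1 (0.0017) or PVASC replicate 3 (0.0077). Mmp19 shares 789 exon bases with Tmem198b on the opposite strand (325 to 764 reads per library). Mmp28 (epilysin) was at log2 fold changes of -0.71 in PVASCs against Sub-ASCs and 1.53 against Ab-ASCs (adjusted p = 0.00268 and 0.000128). It shares 466 exon bases with 1700020L24Rik, which had 0 to 18 reads per library.

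The ADAMTS proteases that cleave proteoglycans numbered 7, of which 6 had enough reads. In PVASCs 5 were lower and 1 higher than in Sub-ASCs, and 2 were higher and 4 lower than in Ab-ASCs. Adamts15 (chr9:30899155-30922452, minus strand) had the widest difference between groups of any member with a mean of at least 10 CPM, with 369, 356 and 375 CPM in Sub-ASCs, 4.56, 2.93 and 3.17 CPM in Ab-ASCs and 2.02, 1.93 and 1.91 CPM in PVASCs. It was 187-fold lower in PVASCs (-7.55 ± 0.12 (SE), adjusted p = 5.47e-14) and 104-fold lower in Ab-ASCs (-6.71 ± 0.11 (SE), adjusted p = 1.05e-13) than in Sub-ASCs, and lower in PVASCs than in Ab-ASCs by -0.84 ± 0.15 (SE), adjusted p = 0.000472. Adamts5, a main aggrecanase of cartilage (chr16:85856173-85901828, minus strand), had 537, 549 and 517 CPM in Sub-ASCs, 91.4, 117 and 105 CPM in Ab-ASCs and 128, 126 and 119.6 CPM in PVASCs. It was 4.29-fold lower in PVASCs than in Sub-ASCs (-2.10 ± 0.078 (SE), adjusted p = 1.12e-10). Adamts5 was slightly higher in PVASCs than in Ab-ASCs (0.25 ± 0.077 (SE), adjusted p = 0.0142), which was lost without PVASC replicate 1 (0.23, adjusted p = 0.0538). Its neighbour on chromosome 16, Adamts1 (chr16:85793827-85803113, minus strand), took the same order with 216, 219.7 and 209.7 CPM in Sub-ASCs, 87.2, 91.8 and 91.2 CPM in Ab-ASCs and 128, 129 and 132 CPM in PVASCs. The 3 groups did not overlap, at log2 fold changes of -0.73 ± 0.048 (SE), adjusted p = 3.17e-08 in PVASCs against Sub-ASCs and 0.53 ± 0.049 (SE), adjusted p = 2.57e-06 against Ab-ASCs.

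Adamts4, the other main aggrecanase, had 62.3, 59.4 and 64.4 CPM in Sub-ASCs, 43.9, 47 and 43.6 CPM in Ab-ASCs and 36.3, 33.7 and 33 CPM in PVASCs. The steps were small and without overlap, at -0.85 in PVASCs against Sub-ASCs and -0.38 against Ab-ASCs on the log2 scale (adjusted p = 9.04e-08 and 0.0003). Adamts9, a versican-cleaving protease, had 40.6, 40.1 and 38.5 CPM in Sub-ASCs, 87.3, 99.4 and 106 CPM in Ab-ASCs and 27.3, 29.2 and 27.6 CPM in PVASCs. It was highest in Ab-ASCs and lowest in PVASCs, 3.48-fold apart (-1.80 ± 0.074 (SE), adjusted p = 1.64e-09). Adamts9 shares 1381 exon bases with A730049H05Rik on the opposite strand (3 to 73 reads per library). Adamts8 was low, with 0.172, 0.157 and 0.0381 CPM in Sub-ASCs, 2.68, 2.09 and 1.87 CPM in Ab-ASCs and 0.795, 1.15 and 1.27 CPM in PVASCs. Sub-ASC replicates 1 and 2 were just above the floor and replicate 3 below it, and Adamts8 was higher in Ab-ASCs (4.14 ± 0.40 (SE), adjusted p = 1.13e-06) and in PVASCs (3.10 ± 0.43 (SE), adjusted p = 3.51e-05) than in Sub-ASCs.

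The procollagen N-proteinases remove the amino-terminal propeptide of fibrillar procollagens. Adamts2 (chr11:50602084-50807573, plus strand), the most abundant ADAMTS gene in every group by FPKM, had 1888, 1891 and 1908 CPM in Sub-ASCs, 434, 389 and 408 CPM in Ab-ASCs and 263, 256 and 249 CPM in PVASCs. It was 7.41-fold lower in PVASCs (-2.89 ± 0.053 (SE), adjusted p = 1.81e-13) and 4.62-fold lower in Ab-ASCs (-2.21 ± 0.051 (SE), adjusted p = 1.33e-12) than in Sub-ASCs. Adamts14, which acts on the same propeptide, had 22.8, 25.4 and 22.3 CPM in Sub-ASCs, 30.5, 29.7 and 29.2 CPM in Ab-ASCs and 52.8, 51.2 and 49.1 CPM in PVASCs. Its order was the reverse, with PVASCs highest, 2.17-fold above Sub-ASCs (1.12 ± 0.066 (SE), adjusted p = 9.89e-09) and 1.71-fold above Ab-ASCs (0.77 ± 0.066 (SE), adjusted p = 1.08e-06). By FPKM Adamts2 exceeded Adamts14 in every group, at 27.4 ± 0.741 against 9.82 ± 0.352 (SD, n = 3) in PVASCs and 203 ± 1.16 against 4.52 ± 0.314 in Sub-ASCs. Adamts3 was low and lower in PVASCs than in Sub-ASCs (-1.50, adjusted p = 1.74e-05), and against Ab-ASCs it gave -0.52 (adjusted p = 0.0607).

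Adamts7 and Adamts12 cleave cartilage oligomeric matrix protein. Adamts7 (chr9:90163069-90208071, plus strand), which is known from the vessel wall for its part in smooth muscle migration, had 118, 119 and 121 CPM in Sub-ASCs, 81.7, 79.2 and 80.1 CPM in Ab-ASCs and 33.2, 32.3 and 32.1 CPM in PVASCs. It was lowest in PVASCs with no overlap, 3.66-fold below Sub-ASCs (-1.87 ± 0.051 (SE), adjusted p = 5.92e-12) and 2.47-fold below Ab-ASCs (-1.30 ± 0.051 (SE), adjusted p = 1.01e-09). Adamts7 shares 122 exon bases with Tbc1d2b on the opposite strand (3637 to 17948 reads per library), which had 50403 reads in all in Sub-ASCs, 13901 in Ab-ASCs and 11326 in PVASCs, and its part in the result was not tested. Adamts12 had 71.1, 74 and 71.3 CPM in Sub-ASCs, 57.2, 80.1 and 75.8 CPM in Ab-ASCs and 61.9, 63.8 and 63.2 CPM in PVASCs. Ab-ASC replicate 1 was the lowest of all 9 libraries and Ab-ASC replicate 2 the highest. No comparison passed for Adamts12, with -0.20 ± 0.10 (SE), adjusted p = 0.0933 in PVASCs against Sub-ASCs, -0.18 against Ab-ASCs (adjusted p = 0.147) and -0.02 in Ab-ASCs against Sub-ASCs (adjusted p = 0.864). Without Ab-ASC replicate 1 all of them passed, at -0.19 (adjusted p = 0.000531), -0.31 (1.96e-05) and 0.12 (0.0406), the last with the opposite sign. The first also passed with no filter on low counts (adjusted p = 0.0362) and with only the groups compared (0.000515), and the last was 0.0058 without Sub-ASC replicate 2.

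Adamts6 and Adamts10 are linked to fibrillin microfibrils. Adamts6 (chr13:104287835-104496695, plus strand) had 2.15, 4.32 and 2.1 CPM in Sub-ASCs, 28.2, 44.1 and 43 CPM in Ab-ASCs and 35.7, 33.4 and 34 CPM in PVASCs. It was 12-fold higher in PVASCs (3.58 ± 0.23 (SE), adjusted p = 2.46e-08) and 13.4-fold higher in Ab-ASCs (3.75 ± 0.23 (SE), adjusted p = 1.59e-08) than in Sub-ASCs. PVASCs and Ab-ASCs overlapped for Adamts6 (-0.17, adjusted p = 0.445), although the difference passed without Ab-ASC replicate 1 (-0.34, adjusted p = 0.00854). Adamts10 had 43, 40.5 and 46.6 CPM in Sub-ASCs, 44.5, 40.6 and 43.3 CPM in Ab-ASCs and 41, 40.6 and 42.1 CPM in PVASCs. Of all tested members it had the smallest maximum over the 3 comparisons, with differences of -0.072 from Sub-ASCs to PVASCs, -0.052 from Ab-ASCs to PVASCs and -0.02 from Sub-ASCs to Ab-ASCs (adjusted p = 0.348, 0.528 and 0.797). The second was 0.025 with only these groups in the fit, and the third 0.033 and 0.023 without Sub-ASC replicate 3 or Ab-ASC replicate 2.

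Adamts19 had few reads, with 20, 30 and 28 reads in Sub-ASCs, 3, 0 and 0 in Ab-ASCs and 1, 0 and 0 in PVASCs. The Sub-ASC libraries held more reads than all others. Its ratio of Sub-ASCs to Ab-ASCs was 22.04 (exact 95% interval 7.27 to 109) and that of Sub-ASCs to PVASCs 97.5 (17.0 to 3898), intervals that cover counting error only. Fitted values were -6.07 for PVASCs and -4.32 for Ab-ASCs against Sub-ASCs (adjusted p = 1.34e-05 and 8.49e-05), and -1.75 between PVASCs and Ab-ASCs (adjusted p = 0.324, or 1.71 without Ab-ASC replicate 1).

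The remaining 10 members had too few reads to pass the count filter. Mmp24 and Mmp25, both membrane-type, had 1 to 17 and 0 to 10 reads per library. In PVASCs Mmp24 had 10, 17 and 17 reads, against 1, 3 and 2 in Sub-ASCs and 2, 3 and 6 in Ab-ASCs, but it shares 637 exon bases with BC029722 (564 to 966 reads). Adamts16 had 8, 8 and 5 reads in Sub-ASCs, 0 in each Ab-ASC library and 1, 6 and 3 in PVASCs. Adamts20 had 2 to 11 reads, Adamts13, the von Willebrand factor protease, 0 to 7, Adamts17 0 to 6, Mmp21 0 to 3 and Adamts18 0 to 2. Mmp7 and Mmp20 are given above with the cluster. Without the count filter 9 of these genes had a test, Mmp20 having no reads. In PVASCs against Sub-ASCs Mmp24 (adjusted p = 0.000652) and Adamts13 (0.033) were higher and Mmp25 (0.0246) and Mmp7 (0.0131) lower. In PVASCs against Ab-ASCs Adamts16 was higher (0.0279) and Mmp25 lower (0.00244), and in Ab-ASCs against Sub-ASCs Adamts13 was higher (0.0128) and Adamts16 lower (0.000341). DESeq2 made the same calls except for Adamts13 in PVASCs against Sub-ASCs (adjusted p = 0.0515). These calls rest on at most 17 reads per library, and the share of all genes that passed without the filter is not given here.

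The 7 lists of related genes, which name other parts of pericellular proteolysis, held 69 genes, all in the table, of which 59 had enough reads. In PVASCs against Sub-ASCs 50 passed, 20 higher and 30 lower (84.7% against 70.4% of all tested genes). In PVASCs against Ab-ASCs 47 passed, 15 higher and 32 lower (79.7% against 56.9%), and in Ab-ASCs against Sub-ASCs 46 passed, 22 higher and 24 lower (78% against 75.3%).

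The plasminogen system activates several pro-MMPs. Of its 8 tested genes, 5 were higher and 3 lower in PVASCs than in Sub-ASCs, and 6 were higher and 1 lower in Ab-ASCs than in Sub-ASCs. Serpinb2 (PAI-2) had 334, 365 and 328 CPM in Sub-ASCs, 704, 1032 and 885 CPM in Ab-ASCs and 114, 115 and 121 CPM in PVASCs. That is the order of Mmp13, with PVASCs lowest (-1.56 against Sub-ASCs and -2.91 against Ab-ASCs, adjusted p = 5.56e-08 and 1.08e-09).

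Proprotein convertases cut the propeptides of membrane-type MMPs and ADAMTS proteases. Of 7 tested, 1 was higher and 4 lower in PVASCs than in Sub-ASCs, and 5 were lower and none higher than in Ab-ASCs. Furin had 243, 237 and 241 CPM in Sub-ASCs, 232, 227 and 226 CPM in Ab-ASCs and 174, 169 and 168 CPM in PVASCs. It was lower in PVASCs than in both other groups (-0.49 and -0.42, adjusted p = 7.01e-07 and 8.67e-06).

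Of 7 tested genes for other inhibitors and clearance receptors, 2 were higher and 4 lower in PVASCs than in Sub-ASCs. Lrp1, an endocytic receptor for protease and inhibitor complexes, had 5565, 5714 and 5635 CPM in Sub-ASCs, 3819.8, 3789 and 3918 CPM in Ab-ASCs and 3024, 3047 and 3049.9 CPM in PVASCs, a difference of -0.89 (adjusted p = 3.56e-10). Bsg (EMMPRIN), known as an inducer of MMPs, had 1038, 979.8 and 1037 CPM in Sub-ASCs, 887, 743 and 789 CPM in Ab-ASCs and 578, 584 and 594 CPM in PVASCs, a difference of -0.80 (adjusted p = 1.36e-07). Lrp2 (megalin) was low and went the other way, at 3.74 in PVASCs and 4.68 in Ab-ASCs relative to Sub-ASCs (adjusted p = 3.53e-06 and 2.01e-07).

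Of 8 ADAM proteases, the membrane-bound relatives, 2 were higher and 4 lower in PVASCs than in Sub-ASCs. Adam19 had 297, 285 and 289 CPM in Sub-ASCs, 701, 682 and 668 CPM in Ab-ASCs and 372, 379.9 and 365 CPM in PVASCs, with 0.36 in PVASCs against Sub-ASCs and -0.88 against Ab-ASCs (adjusted p = 1.34e-05 and 1.13e-08). Adam9 differed between PVASCs and Sub-ASCs by -0.16 (adjusted p = 0.0548), and Adam33 was lower in PVASCs than in Sub-ASCs by -2.72 (adjusted p = 3.77e-10). The ADAMTS-like proteins, which lack the protease domain, had 1 higher and 5 lower of 7 in PVASCs against Sub-ASCs. Papln, a matrix protein of this kind, had 8.76, 8.49 and 8.43 CPM in Sub-ASCs, 0.0537, 0.0445 and 0.223 CPM in Ab-ASCs and 0.52, 0.407 and 0.159 CPM in PVASCs, and was lower in PVASCs than in Sub-ASCs (-4.54, adjusted p = 5.86e-09) though higher than in Ab-ASCs, where it was at or near the floor (1.68, adjusted p = 0.0327). Adamtsl4 was at -1.21 and Adamtsl5 at -0.42 in PVASCs against Sub-ASCs (adjusted p = 7.5e-09 and 6.79e-05).

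Of 13 tested substrates, 5 were higher, 5 lower and 3 not changed past the threshold in PVASCs against Sub-ASCs. Col1a1 had 3380.3, 3317 and 3509 CPM in Sub-ASCs, 5189, 4954 and 5074 CPM in Ab-ASCs and 2597, 2582 and 2504 CPM in PVASCs, and was lower in PVASCs than in Sub-ASCs (-0.41) and than in Ab-ASCs (-0.99, adjusted p = 1.76e-06 and 1.99e-09). Bgn, the proteoglycan biglycan, had 2292, 2568 and 2381 CPM in Sub-ASCs, 5627, 4639 and 4912 CPM in Ab-ASCs and 3339, 3572 and 3327 CPM in PVASCs, and was higher in PVASCs than in Sub-ASCs (0.50, adjusted p = 3.48e-05). Col2a1, the collagen of cartilage, was at or below the floor in Sub-ASCs and Ab-ASCs and at 10.3, 11.4 and 11.7 CPM in PVASCs.

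Of 9 tested AP-1 and Runx factors, 4 were higher and 5 lower in PVASCs than in Sub-ASCs, and 7 were lower and none higher in PVASCs than in Ab-ASCs. Fosl1 (Fra-1) had 42, 40.8 and 41 CPM in Sub-ASCs, 131, 115 and 116 CPM in Ab-ASCs and 73.9, 72.6 and 69.4 CPM in PVASCs. Its log2 fold change was 1.55 in Ab-ASCs and 0.80 in PVASCs against Sub-ASCs (adjusted p = 2.58e-10 and 1.49e-07). Fosb took the same order at a lower level (2.20 and 0.67, adjusted p = 8.64e-09 and 0.000935). Junb had 257, 239 and 267 CPM in Sub-ASCs, 251, 224 and 234 CPM in Ab-ASCs and 132, 131 and 130.4 CPM in PVASCs, and was lower in PVASCs than in both other groups (-0.96 and -0.85, adjusted p = 1.38e-08 and 1.62e-07).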

How the data were processed

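The authors deposited raw read counts per gene for 9 libraries (3 per depot), with gene positions, lengths and biotypes, not normalized or filtered. Total RNA was made into libraries with the NEBNext Ultra RNA kit. The submitters' processing notes name CASAVA 1.8, Bowtie 0.12.2, featureCounts 1.5.0-p3 and the builds mm8 and mm10, without roles. The strand setting is not given in the sources used here. The listed positions were the same as those of GENCODE M21 (GRCm38) for 44 of the 45 members and 53585 of all 54532 genes. Groups and replicate numbers came from the labels.

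These counts were modelled in R 4.3.3 (edgeR 4.0.16, limma 3.58.1). After filterByExpr, libraries were normalized with TMM, and all 9 entered 1 quasi-likelihood fit without covariates. p-values were adjusted (Benjamini-Hochberg, threshold 0.05) over all 16526 genes tested. SE was the absolute log2 fold change over the square root of F. The procedure was tested on simulated counts. CPM used the TMM-scaled reads of tested genes, and FPKM divided this CPM by the listed length in kilobases. Values in every library are given for the TIMPs, for members with a group mean of at least 10 CPM and for members that passed a comparison with a log2 fold change of 3 or more in size. From each related list, the 2 genes with the highest mean FPKM and the passed gene with the largest log2 fold change are named, although values for some of these genes are not reported here. The members and lists were chosen with earlier results of these data known. The alternatives were RLE size factors, DESeq2 1.42.0, no filter, at least 10 reads in every library, only the groups compared, a replicate block, leaving out each library, and a cutoff of 1 on the size of the log2 fold change. Promoters came from RefSeq (GRCm38.p6). Python 3.11.15, pandas 2.3.3, numpy 2.4.6, scipy 1.17.1 and matplotlib 3.10.9 made tables and plots.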

Additional observations from a re-analysis of the deposited data

How the results depend on the processing

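Requiring a log2 fold change of 1 or more in size left 13 of 25 members that passed in PVASCs against Ab-ASCs. Of the related genes it left 27 of 46 in Ab-ASCs against Sub-ASCs, 24 of 50 in PVASCs against Sub-ASCs and 17 of 47 in PVASCs against Ab-ASCs. Under the other alternatives the counts of members and of related genes that passed stayed within 1.5 times of those reported. Leaving out each library in turn gave 33 to 36 members among the groups, 33 to 34 in Ab-ASCs against Sub-ASCs, 33 to 36 in PVASCs against Sub-ASCs and 24 to 28 in PVASCs against Ab-ASCs, each highest without Ab-ASC replicate 1. For related genes the last 3 ranges were 43 to 49, 46 to 54 and 41 to 47.

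Same-numbered libraries did not deviate together (correlations of -0.0514 to 0.0950). No label says whether they are paired, and with 3 libraries per group these correlations cannot decide it. With the replicate block 33 members passed among the groups, 33 in Ab-ASCs against Sub-ASCs, 33 in PVASCs against Sub-ASCs and 25 in PVASCs against Ab-ASCs, and 45, 50 and 44 related genes in the last 3.

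Among single genes, 15 values changed sign, each of a difference that had not passed. In PVASCs against Ab-ASCs, Mmp19 was 0.018 with at least 10 reads in every library and 0.053 with only the groups compared, and Mmp17 and Adamts10 were 0.026 and 0.025 with only the groups compared. Leaving out 1 library at a time, the range was -0.078 to 0.0077 for Mmp19, -0.096 to 0.028 for Mmp17, -0.11 to 0.78 for Mmp1b, -1.67 to 0.25 for Timp4 and -3.39 to 1.71 for Adamts19. In Ab-ASCs against Sub-ASCs it was -0.11 to 0.12 for Adamts12 and -0.060 to 0.033 for Adamts10. The cause was not tested. Under TMM, RLE and DESeq2, all genes had a median log2 fold change from -0.06 to 0.01. The depth limits statements on the 10 members with few reads, on Timp4, Mmp1b and Adamts8 where they lay near the floor, and on Adamts19.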
